A study of Mus musculus with 8 samples.

Results

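Amino acid transporters of the plasma membrane were followed through mouse bone marrow and spleen samples, labelled as BCR-ABL1 cells and as splenic B cells, that did or did not express green fluorescent protein (GFP) from a reporter of the Aid gene. The 10 genes, Slc7a5, Slc3a2, Slc7a6, Slc7a1, Slc7a3, Slc1a5, Slc1a4, Slc38a1, Slc38a2 and Slc7a11, were taken by name from the array annotation, and every probe set that carried 1 of these symbols alone was read. They made up 10 of 18193 genes and 20 of 45037 probe sets on the array. A level filter left 17 of the 20 probe sets and 9 of the 10 genes for testing. Slc7a11 was the gene below it, and each of the 9 tested genes was above the filter in all 8 arrays.

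RNA of 8 samples was hybridised to Affymetrix mouse expression arrays, which report 1 fluorescence signal per probe set. There were 4 groups of 2 arrays: GFP-positive and GFP-negative cells of BCR-ABL1 bone marrow, and GFP-positive and GFP-negative splenic B cells stimulated with LPS (a bacterial lipopolysaccharide) and the cytokine IL-4. BCR-ABL1 is a fusion tyrosine kinase that drives leukaemia, and no stimulus is given for the bone marrow cells. The series set GFP-positive against GFP-negative cells in each source. The GFP-negative groups carried the Aid-GFP reporter as well, so no group was free of it. AID, activation-induced cytidine deaminase, deaminates DNA of the antibody genes in activated B cells. Nothing in the labels says that the arrays of a group came from separate animals or cultures, so p-values here reflect only how far these arrays differ from each other, which may be technical.

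Amino acid transporters fall into a few families. LAT1 (Slc7a5) pairs with the heavy chain CD98 (Slc3a2) and brings in leucine and other large neutral amino acids in exchange for glutamine, and Slc7a6 and the cystine carrier Slc7a11 use the same heavy chain. Slc7a1 and Slc7a3 carry arginine and lysine, Slc1a5 and Slc1a4 exchange small neutral amino acids such as glutamine, alanine and serine, and Slc38a1 and Slc38a2 accumulate them with sodium. Activated lymphocytes raise amino acid uptake when they begin to grow and divide, and several of these genes are known targets of the transcription factors ATF4 and MYC.

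ATF4 acts through a composite element bound together with C/EBP proteins, and the promoters of the transporters were read for it because genes of the ATF4 response are described further on. RefSeq promoter windows (250 bases before to 50 after a start, mouse build GRCm38.p6) matched 6 of the 10 genes with 8 windows. TGATGNAA, searched on both strands, lay in the windows of 2 genes, Slc7a11 and Slc1a4, and in 3.97% of all 32851 windows. The parts of both windows that hold it are given 5′ to 3′ on the gene's strand, with the matches on either strand in capitals, for Slc7a11 at chr3:50443634-50443698 (minus strand) and for Slc1a4 at chr11:20332704-20332763 (minus strand).
Slc7a11: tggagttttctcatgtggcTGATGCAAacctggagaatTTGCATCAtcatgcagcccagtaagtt
Slc1a4: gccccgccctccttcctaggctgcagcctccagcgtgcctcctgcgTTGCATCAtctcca
The Slc7a11 window held the motif on the gene's strand from base -66 to -59 and on the opposite strand from -47 to -40, counted from 0 at the start base. In Slc1a4 it lay on the opposite strand from base -4 to 3. The palindrome CACGTG, which MYC and related factors bind, was in 0 of the 8 windows and in 7.15% of all windows. A match here describes letters and not a bound site.

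Across the series, trimmed mean signals ran from 589 to 594 in 6 arrays and were 497 and 477 in the spleen GFP-negative arrays, so the arrays were brought to 1 distribution by quantile normalization. The ratio of 3' to 5' probe sets of Gapdh, a sign of RNA quality, was 1.93 and 1.88 in the spleen GFP-negative arrays and 1.40 to 1.48 in the others. Summed signals of 12 myeloid markers ran from 578 to 581 in spleen GFP-positive arrays and from 80100.1 to 82140.4 in spleen GFP-negative arrays. In the BCR-ABL1 arrays this sum ran from 1045 to 1109 in GFP-positive and from 857 to 961 in GFP-negative cells. The defining myeloid genes Camp, Csf1r, Elane, Itgam and Ngp were at the floor of the signal scale in both spleen GFP-positive arrays. Of 10 T and NK cell markers, 9 had a probe set, and their sum was 494 to 498 in spleen GFP-positive and 13809 to 15356 in spleen GFP-negative arrays. Cd247 of this list went the other way, averaging 128 in spleen GFP-positive and 53.3 in spleen GFP-negative arrays. Of 9 proliferation markers 8 had a probe set, with sums of 35841 to 36235 in spleen GFP-positive and 9418 to 9946 in spleen GFP-negative arrays. Pcna, the brightest of them, averaged 10563 and 7086 in these groups. All 8 were higher with GFP in spleen, by a median of 4.83 on the log2 scale. Cdc6 and Mcm10 were at the floor in both spleen GFP-negative arrays. B cell markers (7 of 8 with a probe set) summed to 38801 to 40612 in spleen GFP-positive, 45925 to 46103 in spleen GFP-negative, 30612 to 31149 in BCR-ABL1 GFP-positive and 31731 to 32033 in BCR-ABL1 GFP-negative arrays. Pre-B markers (6 of 7) summed to 40505 to 41141 in BCR-ABL1 GFP-positive and 37899.6 to 38448.5 in BCR-ABL1 GFP-negative arrays, with 2189 to 3990 in the splenic arrays. Igll1 of this list went the other way. It averaged 538 and 598 in BCR-ABL1 GFP-positive and GFP-negative arrays, against 847 and 1997 in the splenic ones. Averages of S100a8 (19166) and Lyz2 (10069), of myeloid cells, and Cd3e (3068), of T cells, in the spleen GFP-negative arrays go against these being B cells alone, and the groups are called by their labels. In bulk samples fewer cells of a type and less RNA per cell cannot be told apart, and the part of these differences in the results was not tested.

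Values below are quantile-normalized signals of a gene's brightest probe set unless another is named, fold changes are differences of log2 signals given with the standard error of the limma fit over all 12223 genes (n = 2 arrays per group), and a gene is said to rise or fall where the Benjamini-Hochberg adjusted p was under 0.05. Signals of different probe sets are not comparable as levels. Between 2 arrays and 2, exact permutation (two-sided) cannot give a p below 0.333, so each call rests on the spread that limma pools over the 4 groups.

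In BCR-ABL1 cells 2 of the 9 tested transporters differed by GFP, Slc7a3 upward and Slc1a5 downward. Over all genes 5.37% were called, 3.07% higher and 2.30% lower. The other 7 moved by 0.062 or less on the log2 scale except Slc1a4 at 0.33, and the median of the 9 was 0.027 against 0 for all genes. Some B-lineage markers differed between the same arrays: Ms4a1 averaged 38.7 ± 9.47 in GFP-positive and 509.7 ± 94.1 in GFP-negative BCR-ABL1 cells, and Cd22 averaged 215 ± 4.10 and 736 ± 11.02 (SD, n = 2 each). Rag1 averaged 2748 ± 144 in GFP-positive and 973 ± 48.0 in GFP-negative BCR-ABL1 cells, and Rag2 870.0 ± 29.4 and 527 ± 10.1. All 4 passed the limma test (2 of 7 B cell markers fell and 2 of 6 pre-B markers rose), and their part in the calls of Slc7a3 and Slc1a5 was not tested. In splenic B cells 4 transporters rose with GFP (Slc7a3, Slc7a5, Slc7a6 and Slc1a4), 3 fell (Slc38a2, Slc1a5 and Slc38a1) and 2 were not called. This stands beside 77.1% of all genes called there, 45.7% higher and 31.4% lower, so the 77.8% of transporters called in spleen was close to the share of the array as a whole. Their median was 0.078, below the all-gene median of 0.18. Of the 9, 2 rose by at least 2-fold in spleen, while 36.3% of all genes moved that far in either direction. These figures hold for the brightest probe sets only. With probe sets averaged, Slc1a4 (2.53) and Slc7a6 (1.09) also rose by over 2-fold in spleen and Slc38a2 (-1.21) fell by over 2-fold. Slc7a1, whose brightest probe set gave the median of 0.078, was then at 0.49.

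**Figure D1:**
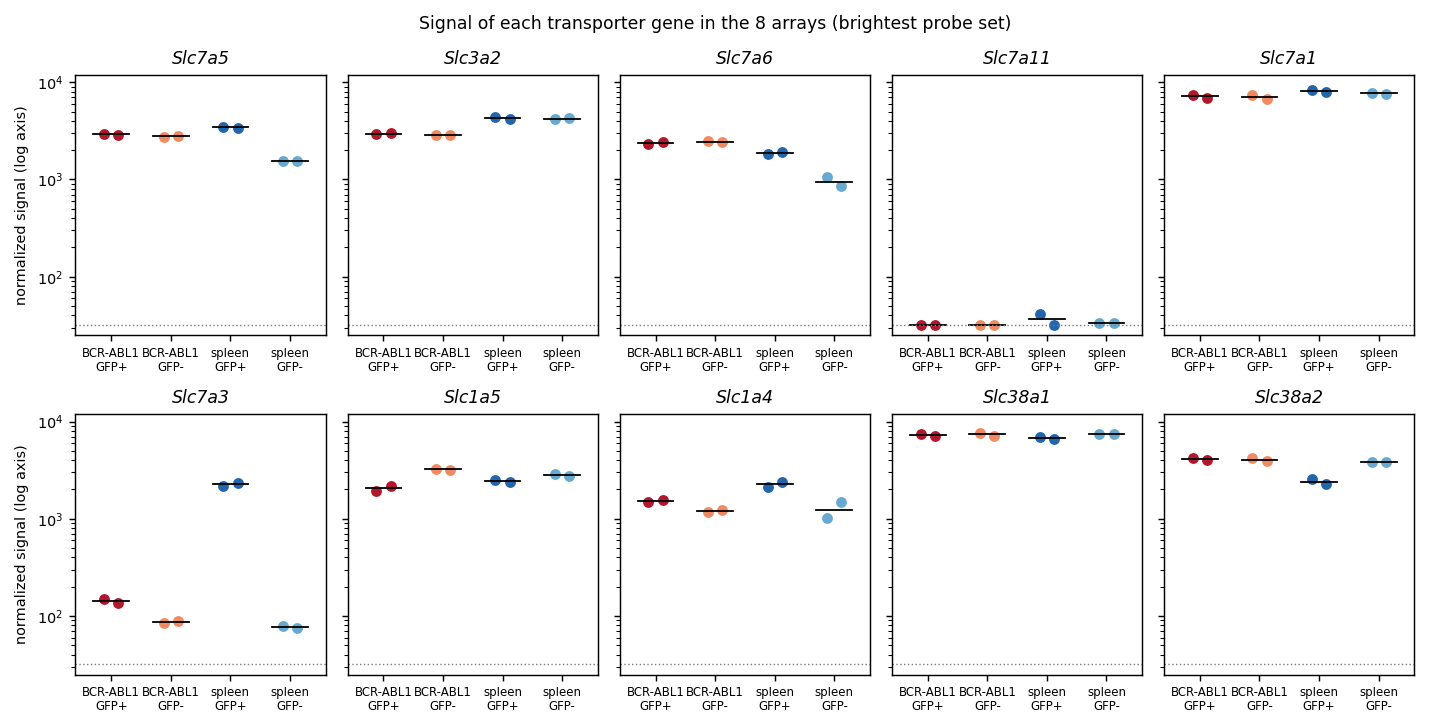
Normalized signal (log axis) of the 10 transporter genes in each of the 8 arrays, with BCR-ABL1 GFP-positive, BCR-ABL1 GFP-negative, spleen GFP-positive and spleen GFP-negative groups from left to right and the floor of 32 dotted. Slc7a3 stands at 2186 and 2345 in the spleen GFP-positive arrays and below 151 in the other 6, and Slc7a11 lies at or near the floor in all 8.

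How the spleen arrays are brought to 1 scale matters for small differences, because the spleen GFP-negative arrays differed in overall signal. The median of all tested genes in the spleen GFP comparison was 0.18 after quantile normalization, 0.39 on the deposited scale, 0.55 when arrays were shifted to equal medians over all probe sets and -0.37 when shifted to equal medians over tested genes. Slc7a3 (4.10 to 5.02), Slc7a5 (0.74 to 1.66), Slc7a6 (0.71 to 1.64), Slc1a4 (0.56 to 1.48) and Slc38a2 (-1.22 to -0.30) kept their direction and their call on all 4 scales. Slc1a5, Slc38a1, Slc3a2 and Slc7a1 did not keep theirs. On the quantile-normalized scale Slc7a5 lay 0.96 above the all-gene median, Slc38a2 0.86 below it and Slc1a5 0.39 below it, and on the deposited scale these distances were 1.11, 0.86 and 0.34.

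Slc7a5, the LAT1 subunit that carries leucine, had signals of 3436 and 3413 in spleen GFP-positive cells and 1552 and 1555 in spleen GFP-negative cells. In BCR-ABL1 cells it had 2939 and 2866 in the GFP-positive and 2759 and 2802 in the GFP-negative arrays. The spleen GFP-negative arrays were the low pair, and every other array was above them by a wide margin compared with the spread within a pair. It rose 2.20-fold with GFP in spleen (log2 1.14 ± 0.049, limma adjusted p = 1.70e-07). In BCR-ABL1 cells the difference was 0.062 ± 0.049 (adjusted p = 0.711, limma), with a 95% interval of -0.050 to 0.17. The order of its levels was spleen GFP-positive, BCR-ABL1 GFP-positive, BCR-ABL1 GFP-negative and spleen GFP-negative, and only the BCR-ABL1 neighbours in that order were not called different.

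Slc3a2, the heavy chain that brings LAT1 to the membrane, had 4342 and 4205 in spleen GFP-positive and 4212 and 4243 in spleen GFP-negative cells. Its BCR-ABL1 signals were 2911 and 3004 in GFP-positive and 2842 and 2889 in GFP-negative cells. The spleen groups overlapped, and all 4 BCR-ABL1 arrays lay below all 4 splenic ones. No GFP difference was called in spleen (0.015 ± 0.045, 95% interval -0.087 to 0.12, limma adjusted p = 0.765), nor in BCR-ABL1 cells (0.046 ± 0.045, adjusted p = 0.814, limma). The spleen value depended on scale: 0.21 as deposited, 0.36 with equal medians over all probe sets and -0.56 with equal medians over tested genes, each of these called. The ratio of Slc7a5 to Slc3a2 within an array does not change when a whole array is shifted, though it does under quantile normalization. On that scale it was 2.18-fold higher in spleen GFP-positive than in spleen GFP-negative cells. On the deposited values it was 2.46-fold higher in spleen GFP-positive than in spleen GFP-negative cells (difference of mean log2 ratios 1.30) and higher in both arrays of the first group than in either of the second, while in BCR-ABL1 cells it was 1.01-fold higher with GFP.

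Slc7a6 exchanges cationic for neutral amino acids and also needs Slc3a2. Its signals were 1847 and 1920 in spleen GFP-positive and 1049 and 856 in spleen GFP-negative cells, and 2331 and 2455 in BCR-ABL1 GFP-positive and 2464 and 2447 in BCR-ABL1 GFP-negative cells. The spleen groups did not overlap, the BCR-ABL1 groups did, and the BCR-ABL1 arrays were the highest. It rose 1.99-fold in spleen (0.99 ± 0.095, limma adjusted p = 1.85e-05), and the second probe set, 1433467_at, rose as well (1.19 ± 0.19, adjusted p = 0.000603, limma over all tested probe sets). In BCR-ABL1 cells the first probe set gave -0.037 ± 0.095 and the second -0.0067, neither called.

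Slc7a11, the light chain that imports cystine for glutathione, was close to undetected. Probe set 1420413_at stood at the floor of 32 in all 4 BCR-ABL1 arrays, at 41.3 and 32 in spleen GFP-positive and at 33.3 and 33.1 in spleen GFP-negative arrays, and 1443536_at was at the floor in all 8. Both were under the filter of 51.0, so no fold change is given for the gene with the paired elements in its promoter.

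Slc7a3, a carrier of arginine and lysine, showed the widest range of the family. It had 2186 and 2345 in spleen GFP-positive cells, against 78.4 and 75.8 in spleen GFP-negative cells. In BCR-ABL1 cells it had 150.5 and 137 in the GFP-positive and 85.5 and 89.1 in the GFP-negative arrays. The groups did not overlap in either source, and the BCR-ABL1 signals were far below those of spleen GFP-positive cells. In spleen the gene rose 29.4-fold (4.88 ± 0.12, limma adjusted p = 1.16e-08). In BCR-ABL1 cells it rose 1.65-fold (0.72 ± 0.12, limma adjusted p = 0.0109). That smaller call rested on all 4 BCR-ABL1 arrays: leaving out any 1 of them kept a difference of 0.65 to 0.79 but gave an adjusted p of 0.0763 to 0.143 (limma). BCR-ABL1 GFP-negative and spleen GFP-negative cells, the lowest groups in the order, were not called different (0.18 ± 0.12, limma adjusted p = 0.190).

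Slc7a1, the widely expressed arginine carrier CAT1, had 8347 and 7894 in spleen GFP-positive, 7804 and 7573 in spleen GFP-negative, 7413 and 6942 in BCR-ABL1 GFP-positive and 7365 and 6794 in BCR-ABL1 GFP-negative cells at its brightest probe set, 1454991_at. No neighbours in that order were called different. A second probe set of the gene, 1454992_at, had 3443 and 3681 in spleen GFP-positive against 1791 and 2005 in spleen GFP-negative cells. That pair of groups did not overlap, and it differed by 0.91 ± 0.071 (limma adjusted p = 7.53e-06), whereas the brightest differed by 0.078 ± 0.053 (limma adjusted p = 0.203). Averaged, they gave a called rise of 0.49 in spleen (limma adjusted p = 0.000203). The 2 probe sets therefore disagree in spleen, and which transcript each reads was not tested. In BCR-ABL1 cells neither was called, at 0.020 for the brightest and 0.14 for the other.

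**Figure D2:**
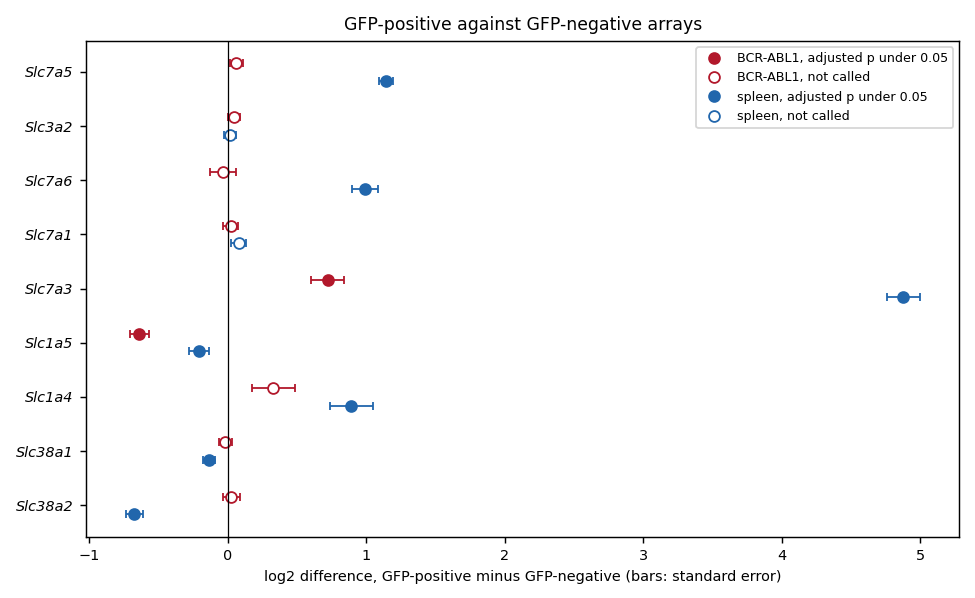
log2 difference between GFP-positive and GFP-negative arrays for the 9 tested transporters (x axis; bars are standard errors), in BCR-ABL1 cells (red) and splenic B cells (blue), with filled points for adjusted p under 0.05. Spleen values run from -0.68 for Slc38a2 to 4.88 for Slc7a3, and BCR-ABL1 values from -0.64 for Slc1a5 to 0.72 for Slc7a3.

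Slc1a5, the glutamine exchanger ASCT2, was the transporter that fell in BCR-ABL1 GFP-positive cells. It had 1945 and 2194 in the BCR-ABL1 GFP-positive arrays, against 3279 and 3152 in the BCR-ABL1 GFP-negative arrays, the lowest and the highest pair of the series. The groups did not overlap, and the difference was -0.64 ± 0.070 (1.56-fold lower, limma adjusted p = 0.00153). It kept its call on all 4 scales and without any 1 array, where its adjusted p was at most 0.0284 (limma). The mean of both probe sets of the gene gave -0.73 with an adjusted p of 0.0518 (limma). The dimmer probe set 1440379_at had 80.6 and 104 in BCR-ABL1 GFP-positive against 183 and 143 in BCR-ABL1 GFP-negative arrays (-0.82 ± 0.28, limma adjusted p = 0.254). In spleen this dimmer probe set (0.47, limma adjusted p = 0.157) and the average of both (0.13, limma adjusted p = 0.485) were positive and not called. The brightest probe set had 2512 and 2374 in spleen GFP-positive and 2868 and 2777 in spleen GFP-negative cells (-0.21 ± 0.070, limma adjusted p = 0.0235). That call did not hold on the deposited scale (0.058), turned to a call in the other direction with equal medians over all probe sets (0.22), and had an adjusted p of up to 0.126 (limma) with 1 array left out.

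Slc1a4, the related exchanger ASCT1 that favours alanine and serine, had 2137 and 2387 in spleen GFP-positive and 1009 and 1472 in spleen GFP-negative cells. In BCR-ABL1 cells it had 1482 and 1544 with GFP and 1180.1 and 1231 without. In neither source did the groups overlap, although the spleen GFP-negative arrays stood far apart from each other. It rose in spleen (1.85-fold, 0.89 ± 0.16, limma adjusted p = 0.000782). In BCR-ABL1 cells the difference of 0.33 ± 0.16 was not called (95% interval -0.030 to 0.68, limma adjusted p = 0.385). Its dimmer probe sets differed more in spleen. Probe set 1423549_at had 366 and 369 in spleen GFP-positive cells and was at the floor in both spleen GFP-negative arrays, so it was at least 11.5-fold higher (limma adjusted p = 1.47e-07). Probe set 1423550_at had 324 and 329 in spleen GFP-positive against 36.5 and 35.9 in spleen GFP-negative cells (limma adjusted p = 1.69e-07). Those GFP-negative signals lay under the filter of 51.0, so no fold is given. In BCR-ABL1 cells neither was called, at 0.15 and 0.21 on the log2 scale.

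Slc38a2, the sodium-coupled carrier SNAT2, was lower with GFP in spleen at all 3 of its probe sets. The brightest had 2535 and 2273 in spleen GFP-positive and 3831 and 3839 in spleen GFP-negative cells. In BCR-ABL1 cells it had 4177 and 4058 with GFP and 4169 and 3918 without. The spleen GFP-positive arrays were the low pair, and the other 6 arrays lay between 3831 and 4177. In spleen it fell by 0.68 on the log2 scale (SE 0.062, limma adjusted p = 1.44e-05), and the dimmer probe sets fell by 1.55 and 1.40 (limma adjusted p = 3.50e-05 and 2.18e-05). In BCR-ABL1 cells the brightest gave 0.027 ± 0.062 (limma adjusted p = 0.978).

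Slc38a1, the sodium-coupled carrier SNAT1, had probe sets that went opposite ways in spleen. The brightest, 1454764_s_at, had 6906 and 6616 in spleen GFP-positive and 7413 and 7444 in spleen GFP-negative cells (-0.14 ± 0.044, limma adjusted p = 0.0208). The other, 1415903_at, had 1512 and 1539 in spleen GFP-positive and 1049 and 914 in spleen GFP-negative cells (0.64 ± 0.087, limma adjusted p = 0.000201). The groups did not overlap at either. The manufacturer marks probe sets that can match more than 1 transcript with the suffix of the brightest, and its call was lost on the deposited scale (-0.045) and with equal medians over all probe sets (0.11). In BCR-ABL1 cells the brightest had 7499 and 7146 with GFP and 7650.3 and 7175 without, which overlapped (-0.017 ± 0.044). The direction of Slc38a1 in spleen is therefore not settled by these arrays.

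**Figure D3:**
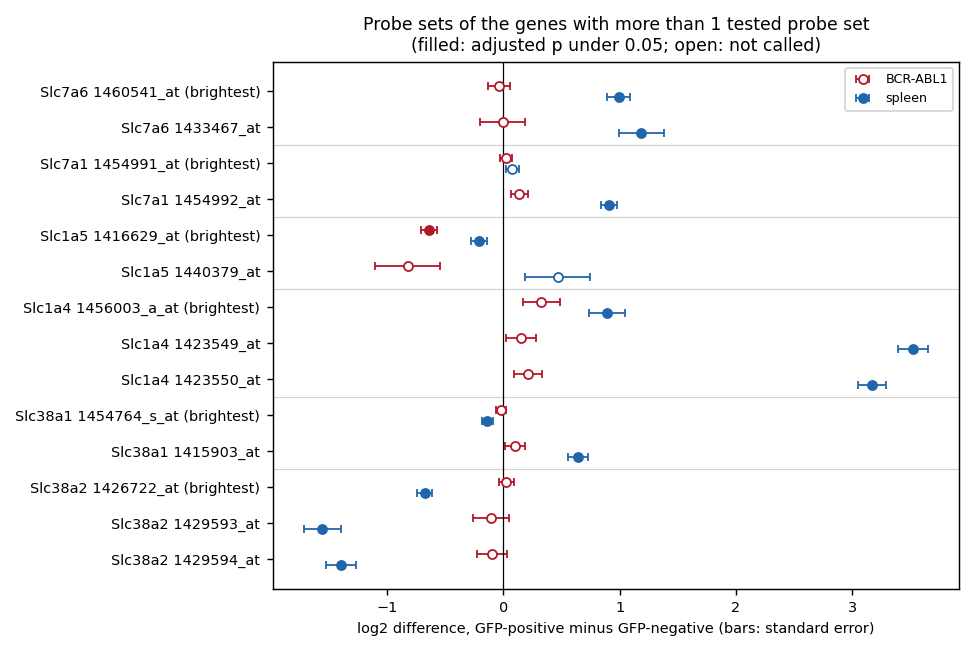
log2 difference between GFP-positive and GFP-negative arrays for each tested probe set of the genes with more than 1 of them (bars are standard errors; filled points have adjusted p under 0.05), in BCR-ABL1 and splenic cells. The spleen values of Slc38a1 fall on both sides of 0, at -0.14 and 0.64, while those of Slc38a2 all lie below it, from -1.55 to -0.68.

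The GFP effect of 6 of the 9 transporters differed between BCR-ABL1 and splenic cells by the interaction term of the same fit, 1 higher and 5 lower. Of all genes 69.0% passed that test, 28.0% higher and 41.0% lower. The differences (BCR-ABL1 effect minus spleen effect) were -4.16 ± 0.17 for Slc7a3, -1.08 ± 0.069 for Slc7a5, -1.03 ± 0.13 for Slc7a6 and 0.70 ± 0.088 for Slc38a2, with limma adjusted p of 3.30e-07, 3.37e-06, 0.000186 and 0.000147. These 4 were called on all 4 scales. Slc1a5 (-0.43 ± 0.098, limma adjusted p = 0.00451) lost its call with equal medians over tested genes, where it was 0.067. Slc1a4 (-0.56 ± 0.22, limma adjusted p = 0.0484) lost its call there too (-0.27), and its adjusted p reached 0.156 (limma) with 1 array left out. That is the brightest of its 3 probe sets, and the dimmer 1423549_at and 1423550_at passed the interaction test with limma adjusted p of 2.51e-06 and 3.26e-06, with spleen GFP-negative signals at the floor or just above it. With the probe sets averaged the interaction of Slc1a4 was -2.30 (limma adjusted p = 5.94e-06). Slc7a1 and Slc38a1 were not called at their brightest probe sets. Their dimmer 1454992_at (-0.77) and 1415903_at (-0.54) passed the test (limma adjusted p = 0.000234 and 0.00471). Averaged, Slc7a1 and Slc38a1 were called at -0.44 and -0.21 (limma adjusted p = 0.00284 and 0.0374). For Slc1a5 the dimmer 1440379_at (-1.29, limma adjusted p = 0.0187) and the average (-0.86, limma adjusted p = 0.0114) were called as well.

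Setting BCR-ABL1 cells against splenic B cells of the same reporter state uses the same arrays again, so the next values are not independent of those above. Among GFP-positive cells 2 transporters were higher in BCR-ABL1 and 6 lower, with 24.8% of all genes higher and 25.5% lower (50.3% called). Slc7a3 was lower by the largest step (-3.98 ± 0.12, limma adjusted p = 3.72e-08). Slc3a2 was 1.45-fold lower (-0.53 ± 0.045, limma adjusted p = 1.99e-05) and Slc38a2 was 1.71-fold higher (0.78 ± 0.062, limma adjusted p = 1.41e-05). Slc1a4 (-0.58), Slc7a5 (-0.24), Slc1a5 (-0.24) and Slc7a1 (-0.18) were lower and Slc7a6 (0.35) higher in BCR-ABL1, and of these 5 only Slc7a5 kept an adjusted p under 0.05 (at most 0.0374, limma) without each array in turn. The scale moved these values little, with an all-gene median between -0.066 and -0.031. With probe sets averaged Slc1a4 (-0.95), Slc7a1 (-0.33) and Slc7a6 (0.55) were called (limma adjusted p = 0.000110, 0.00325 and 0.0156). Slc1a5 was not called then (-0.23, limma adjusted p = 0.275).

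Among GFP-negative cells 3 transporters were higher in BCR-ABL1 and 1 lower, with 45.7% of all genes higher and 32.8% lower (78.5% called). Slc7a6 was 2.59-fold higher (1.37 ± 0.095, limma adjusted p = 2.29e-06) and Slc7a5 1.79-fold higher (0.84 ± 0.049, limma adjusted p = 7.75e-07). Slc3a2 was 1.48-fold lower (-0.56 ± 0.045, limma adjusted p = 5.62e-06). These 3 held on all 4 scales and without any 1 array. Slc1a5 was 1.14-fold higher (limma adjusted p = 0.0350) and turned to -0.32 with equal medians over tested genes. Its dimmer 1440379_at was higher by 1.07 (limma adjusted p = 0.00771) and the average of its probe sets by 0.63 (limma adjusted p = 0.00829). Slc1a4 was not called at its brightest probe set (-0.016). Its dimmer 1423549_at and 1423550_at were higher in BCR-ABL1 (2.28 and 1.77, limma adjusted p = 1.13e-06 and 3.05e-06). The spleen GFP-negative signals of both lay at the floor or just above it. Averaged, Slc1a4 was higher by 1.35 (limma adjusted p = 6.04e-06). Dimmer probe sets were also called for Slc7a1 (1454992_at, 0.30), Slc38a1 (1415903_at, 0.22) and Slc38a2 (1429593_at, -0.69). So Slc3a2 was the member that was lower in BCR-ABL1 cells whichever reporter state was compared.

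**Figure D4:**
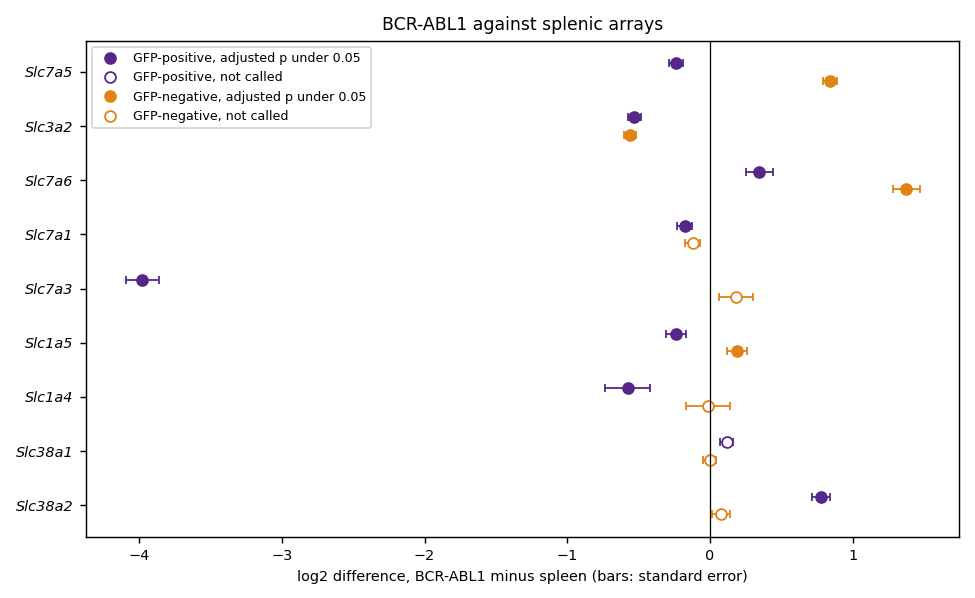
log2 difference between BCR-ABL1 and splenic arrays for the 9 tested transporters (bars are standard errors; filled points have adjusted p under 0.05), within GFP-positive cells (purple) and within GFP-negative cells (orange). Slc3a2 lies at -0.53 and -0.56, and Slc7a5 lies at -0.24 among GFP-positive and at 0.84 among GFP-negative cells.

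Genes with the most similar pattern were ranked by Pearson correlation of log2 signals over the 8 arrays, as a description of points that share arrays and groups. Slc7a5 was closest to Nxn, Nifk and Ndufaf1 (all 0.999), and 1557 of the tested genes exceeded 0.95. Slc7a6 was closest to Ndc1, Cdca7l and Dna2 (0.997 to 0.998), with 1205 genes above 0.95, and Slc3a2 to Ncf1, Syt11 and Nfkb2, with 450. Slc7a3 was closest to Plxnd1 (0.997), Zcchc3 and Gstm5 (0.996 each), with 201 genes above 0.95. Slc38a2 was closest to Sft2d2, Gpd1l and Ipcef1 (209 genes) and Slc1a4 to Mfsd11, Ccdc112 and Trpv2 (30 genes). Few genes followed the others: 4 exceeded 0.95 for Slc38a1, 2 for Slc7a1 and 1, Npepps at 0.957, for Slc1a5.

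Other amino acid transporters were read from a list of 30, of which 18 were tested. In BCR-ABL1 cells 2 rose and 1 fell (median 0.0082). That is 16.7% of the 18, where 5.37% of all genes were called, 3.07% higher and 2.30% lower. Slc7a7, another partner of Slc3a2, had 475 and 499.6 in GFP-positive and 267 and 294 in GFP-negative BCR-ABL1 cells (0.80 ± 0.12, limma adjusted p = 0.00650). Slc43a2, a leucine carrier, rose (0.57 ± 0.092, limma adjusted p = 0.0102) and Slc36a4, of the proton-coupled family, fell (-0.84 ± 0.099, limma adjusted p = 0.00228). Of these calls Slc36a4 held without each array in turn, with an adjusted p of at most 0.0408 (limma), and those of Slc7a7 and Slc43a2 did not, at up to 0.0988 and 0.109 (limma). With its probe sets averaged Slc43a2 was not called either (0.45, limma adjusted p = 0.0666). In spleen 9 rose and 4 fell (median 0.34), 72.2% of the 18 against 77.1% of all genes, and other settings gave 5 to 12 higher and 3 to 8 lower. Slc6a9, a glycine carrier, had 2811 and 2858 in spleen GFP-positive and 410.2 and 661 in spleen GFP-negative cells (5.44-fold, or 2.44 on the log2 scale, and 1.65 with its probe sets averaged). Slc43a1 was at least 3.57-fold higher, being at the floor in spleen GFP-negative cells, and Slc7a7 and Slc36a4 rose by 1.25 and 0.75 on the log2 scale. Slc1a2, a glutamate carrier, fell by 2.90, Slc38a9, the lysosomal arginine sensor, by 1.89 and Slc43a2 by 1.61. With a gene's probe sets averaged these values were -0.79 for Slc1a2, -0.37 for Slc38a9 and -0.14 for Slc43a2, and the last was not called (limma adjusted p = 0.273).

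Genes of the ATF4 amino acid response, 24 of 26 tested, gave 1 higher and 1 lower call in BCR-ABL1 cells (median -0.024). These were 8.33% of the 24, near the 5.37% of all genes called there. Trib3, a pseudokinase induced by ATF4, had 994 and 1033 in GFP-positive against 609 and 658 in GFP-negative BCR-ABL1 cells (0.68 ± 0.11, limma adjusted p = 0.0108), and Vldlr, a lipoprotein receptor, fell (-0.77 ± 0.14, limma adjusted p = 0.0186). Both calls were lost with some single arrays left out, where the adjusted p reached 0.144 and 0.198 (limma), and with its probe sets averaged Vldlr was at -0.29 (limma adjusted p = 0.118). Atf4 itself (0.073) and Asns, asparagine synthetase (0.22, limma adjusted p = 0.109), were not called at their brightest probe sets. With its probe sets averaged Asns was called (0.24, limma adjusted p = 0.0401). In spleen 18 rose and 3 fell, with a median of 0.97. That is 87.5% of the 24, where 77.1% of all genes were called, 45.7% higher and 31.4% lower, and other settings gave 15 to 20 higher and 2 to 8 lower. Cth, which makes cysteine, had 2090 and 2227 in spleen GFP-positive cells and lay at the floor in both spleen GFP-negative arrays, so it was at least 67.4-fold higher with GFP. Asns had 6276 and 6155 in spleen GFP-positive against 568 and 503 in spleen GFP-negative cells (3.54 ± 0.065), and Chac1, Trib3 and Atf5 rose by 3.68, 3.51 and 3.35. Psat1, of serine synthesis, rose by 1.97, Atf4 rose by 0.13 and fell on 1 of the 4 scales (-0.54), and Vldlr fell by 4.12 (by 1.84 with its probe sets averaged). Ddit3 (1290 against 1736), Cebpb (258 against 680) and Cbs (223 against 353) also averaged lower in spleen GFP-positive than in spleen GFP-negative arrays. With equal medians over tested genes 8 of the list fell. As given above, summed signals of proliferation markers were higher in the same spleen GFP-positive arrays. Those of myeloid and of T and NK markers were lower, although Cd247 was higher.

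All 18 tested cytosolic aminoacyl-tRNA synthetases, the enzymes that load amino acids on tRNAs (of 20 listed), rose in spleen, with a median of 0.90, where 45.7% of all genes were higher. In BCR-ABL1 cells 0 were called by limma (median 0.028), where 5.37% of all genes were. Yars rose by 1.79, Aars by 1.07 and Qars by 0.16. With equal medians over tested genes 11 of them rose and 1, Qars at -0.47, fell, and the same markers of other cell types and of proliferation moved in these arrays.

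Sensors of amino acids and components of the growth kinase complex mTORC1, 25 of 28 tested, gave 1 higher and 1 lower call in BCR-ABL1 cells (median -0.024). These were 8% of the 25, near the 5.37% of all genes called there. Mtor, the kinase itself, had 1914 and 2058 in GFP-positive against 4899 and 4939 in GFP-negative BCR-ABL1 cells (-1.31 ± 0.071, limma adjusted p = 5.01e-05). Its probe set 1446185_at fell as well (-1.37 ± 0.17), whereas 1436267_a_at did not pass the test (-0.040 ± 0.30, limma adjusted p = 1), so the probe sets of Mtor disagree. Sesn3, an inhibitor of the pathway, was higher by 0.28 (limma adjusted p = 0.0375) and lost that call in 14 of 19 alternative settings. In spleen 8 rose and 10 fell (median -0.088), 72% of the 25 against 77.1% of all genes. Rptor rose by 1.15 (by 0.47 with its probe sets averaged) and Rraga by 1.02, and Sesn1 fell by 1.66 and Rragd by 1.43 (by 0.52 with its probe sets averaged). The count of genes that rose was 16 with equal medians over all probe sets, and 17 fell with equal medians over tested genes.

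Glutamine, cystine and glutathione metabolism, 15 of 17 tested, gave 1 lower call in BCR-ABL1 cells, Gsr, glutathione reductase (-0.27 ± 0.038, limma adjusted p = 0.00536). It lost that call in 5 of 19 alternative settings, also with its probe sets averaged (-0.28, limma adjusted p = 0.135). The 1 call was 6.67% of the 15, near the 5.37% of all genes called there. In spleen 7 rose and 5 fell (median 0.078), close to the 77.1% of all genes called, and other settings gave 4 to 10 higher and 5 to 9 lower. Gpt2 rose by 1.53 (by 2.26 with its probe sets averaged) and Got1 by 0.91, both aminotransferases that use glutamate. Srxn1, Nqo1 and Gsr, of the oxidative stress response, fell by 3.88, 2.38 and 1.47, Srxn1 by 2.05 with its probe sets averaged. Other glutathione and oxidative stress genes were mixed in spleen GFP-positive against GFP-negative arrays. Gss averaged 340 against 79.6, Gclm 687 against 485 and Txnrd1 5505 against 5217, while Hmox1 averaged 330 against 1243 and Gclc 607 against 680. Of 7 known regulators of these transporter genes 0 were called in BCR-ABL1 cells by limma, and in spleen 3 rose and 3 fell, beside 5.37% and 77.1% of all genes called. Myc rose by 0.89 in spleen and differed by 0.039 in BCR-ABL1 cells. Bach1 and Nfe2l2, which control Slc7a11, fell by 2.31 and 1.10 in spleen, and by 1.37 and 0.24 with their probe sets averaged. Myeloid markers were lower in the same spleen GFP-positive arrays as Srxn1, Nqo1, Gsr, Bach1 and Nfe2l2, and their part in these values was not tested.

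**Figure D5:**
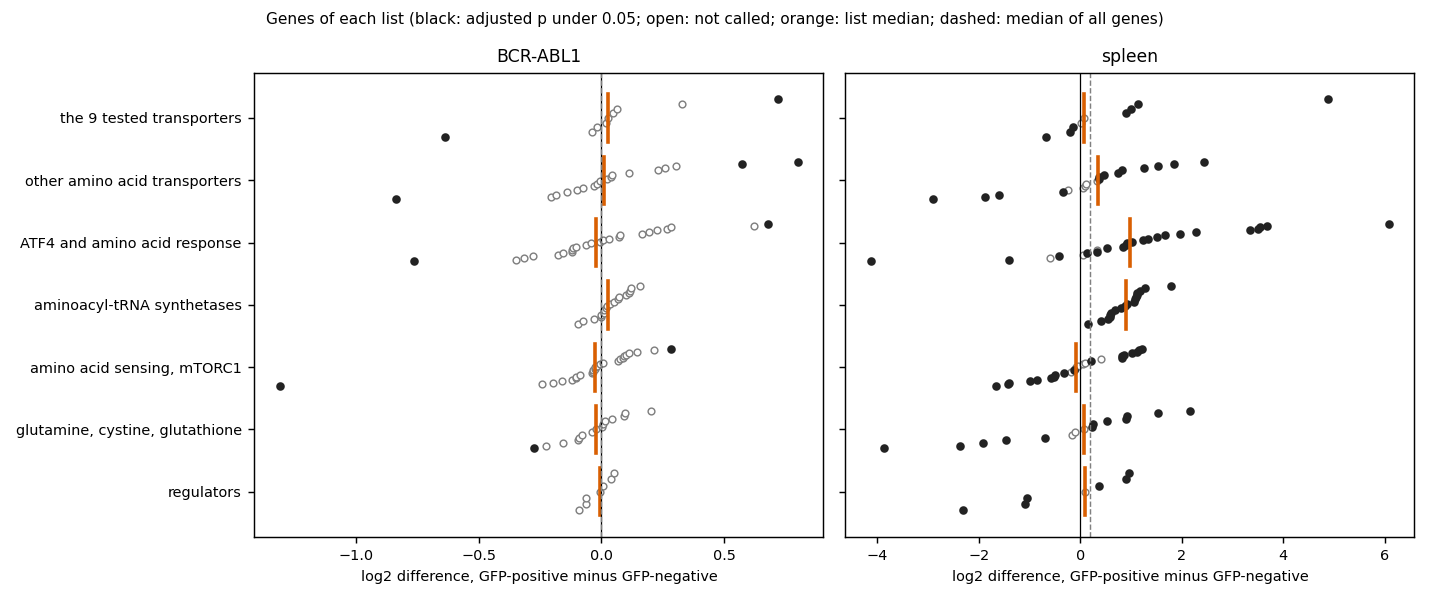
log2 difference between GFP-positive and GFP-negative arrays for the transporters and for each gene of the 6 lists, in BCR-ABL1 and splenic cells. Black points have adjusted p under 0.05, orange bars are list medians and dashed lines the medians of all genes. List medians in BCR-ABL1 cells lie between -0.024 and 0.028, and in spleen between -0.088 for mTORC1 and sensing genes and 0.97 for ATF4 response genes.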

How the data were processed

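The 8 arrays give signal intensity on a linear scale for 45101 probe sets, as deposited, made with GCOS 1.3 per the submitters' processing notes; probe summary and scaling settings, purification before sorting, and a genome build were not given in the sources used here. Per the labels, total RNA was biotin-labelled by the manufacturer's protocol. After 64 controls were left out, 34945 of 45037 probe sets had 1 gene symbol, and 34741 matched by Entrez ID, with 0 symbols changed. Trimmed means (2% trimmed) differed 1.25-fold, above the 10% allowed, so arrays were quantile normalized, floored at 32 and log2 transformed. Probe sets with a mean under the 40th percentile (log2 5.67, signal 51.0) were not tested, and the brightest tested probe set stood for a gene. All 8 arrays were fitted with 1 mean per group in limma 3.58.1 (eBayes with trend, R 4.3.3, 4 residual degrees of freedom), checked on simulated data, for 5 contrasts, with Benjamini-Hochberg adjustment over 12223 genes. Probe sets named one by one come from a fit over all tested probe sets. Precision is limited by 2 arrays per group.

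The members and the gene lists were chosen with earlier results of these data known. Genes open to being named were the 10 transporters, the 6 lists (128 genes) and the marker lists, and the list genes printed were picked from them after seeing their values. Alternatives were the deposited scale, equal medians, floors of 16 and 64, no filter, other ways to combine probe sets, eBayes without trend, a replicate block, a source alone and leaving out each array. Equal medians over the tested genes were added after the data were seen. Promoter windows are RefSeq's (GRCm38.p6), and the motifs searched were TGATGNAA, CACGTG and TGACNNNGC. TGACNNNGC, the core of the antioxidant response element that NRF2 (Nfe2l2) and BACH1 bind, lay in windows of 3 of the transporter genes (Slc7a1, Slc7a6 and Slc38a2) and in 12.4% of all windows. Some genes are not reported here.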

Additional observations from a re-analysis of the deposited data

Results flagged for a closer look

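At their brightest probe sets the GFP effects of 6 transporters differed between the sources by the interaction term of limma (BCR-ABL1 effect minus spleen effect, n = 2 arrays per group). Slc7a3 differed by -4.16, having a rise of 0.72 in BCR-ABL1 cells and of 4.88 in spleen. Slc7a5 differed by -1.08 and Slc7a6 by -1.03, both with a rise in spleen and no call in BCR-ABL1 cells. Slc38a2 differed by 0.70, with a fall in spleen and no call in BCR-ABL1 cells. Slc1a5 differed by -0.43, with a fall of 0.64 in BCR-ABL1 cells beside 0.21 in spleen. Slc1a4 differed by -0.56 at an adjusted p of 0.0484 (limma), a call that 12 of 18 alternative settings ended, while its 2 dimmer probe sets passed the same test (limma adjusted p = 2.51e-06 and 3.26e-06) and the average of its probe sets gave -2.30. With 69.0% of all genes passing the same test, the passing itself sets none of these apart.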

How the results depend on the processing

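The results were recomputed under 20 alternative settings, of which up to 19 apply to a result, and the cause of a change was not tested. The calls of Slc7a3, Slc7a5, Slc7a6 and Slc1a4 as higher and Slc38a2 as lower in spleen kept direction and threshold in all of them. On the deposited scale 1 transporter was lower in spleen and 5 were higher in BCR-ABL1 among GFP-negative cells. Slc1a5 in spleen was 0.058 there, the interaction of Slc3a2 -0.16, and among GFP-negative cells Slc1a4 was 0.44 and Slc38a1 0.069. With equal medians over all probe sets 7 were higher and 1 lower in spleen, 1 was higher in BCR-ABL1 among GFP-positive and 6 among GFP-negative cells. Signs turned for Slc1a5 (0.22) and Slc38a1 (0.11) in spleen, for the interactions of Slc3a2 (-0.31) and Slc38a1 (-0.13), and among GFP-negative cells for Slc7a1 (0.063), Slc1a4 (0.55) and Slc38a1 (0.18). With equal medians over tested genes 5 transporters were lower in spleen, 4 interactions were higher and 3 lower, and 6 transporters were lower in BCR-ABL1 among GFP-negative cells. Signs turned there in BCR-ABL1 cells for Slc7a1 (-0.028) and Slc38a2 (-0.0062), in spleen for Slc3a2 (-0.56), Slc7a1 (-0.60), Atf4 (-0.54) and Qars (-0.47), for the interactions of Slc7a1 (0.58) and Slc1a5 (0.067), and among GFP-negative cells for Slc7a3 (-0.65), Slc1a5 (-0.32) and Slc38a2 (-0.50). Without the filter 1 transporter was lower in spleen, and among GFP-positive cells 1 was higher and 3 lower in BCR-ABL1. Without the trend 1 was lower in spleen.

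With probe sets of a gene averaged 0 transporters were lower in BCR-ABL1 cells by limma (in quantile-normalized values 1863 genes had an unadjusted p under 0.05), 1 was lower in spleen and 2 in BCR-ABL1 among GFP-negative cells. Signs turned for Slc38a1 (0.041), Slc38a2 (-0.058) and Atf4 (-0.066) in BCR-ABL1 cells, for Slc1a5 (0.13), Slc38a1 (0.25) and Qars (-0.035) in spleen, for Slc38a1 in the interaction (-0.21) and among GFP-positive cells (-0.10), and among GFP-negative cells for Slc7a1 (0.11), Slc1a4 (1.35), Slc38a1 (0.11) and Slc38a2 (-0.21). Over all tested probe sets the calls numbered 21129 in spleen, 18864 for the interaction, and 11900 and 21322 for BCR-ABL1 against spleen among GFP-positive and GFP-negative cells, more because more features were tested. The second probe set of Slc7a6 in BCR-ABL1 cells was 0.0017 as deposited and 0.013 with equal medians, and that of Slc1a5 in spleen -0.44 with equal medians over tested genes.

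With each array left out in turn, called genes in BCR-ABL1 cells ranged from 210 to 839, the 4 lowest values coming without a BCR-ABL1 array. Transporters higher there numbered 0 to 1, lower in spleen 1 to 3, higher in BCR-ABL1 among GFP-positive cells 1 to 2 and lower among GFP-negative cells 1 to 2. Near 0, signs turned in BCR-ABL1 cells for Slc7a1 (-0.038 to 0.078), Slc38a1 (-0.064 to 0.029), Slc38a2 (-0.018 to 0.071) and Myc (-0.0087 to 0.086), in spleen for Slc3a2 (-0.0077 to 0.039), and among GFP-negative cells for Slc1a4 (-0.29 to 0.26) and Slc38a1 (-0.050 to 0.042). The dimmer Slc38a2 probe sets in BCR-ABL1 cells ran from -0.30 to 0.085 and from -0.19 to 0.00094.

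Arrays with the same replicate number deviated together with correlations of 0.13 in BCR-ABL1 and 0.27 in spleen, but with 2 numbers per source they share only a number. A replicate block within each source gave 2 higher interactions and 2 transporters lower in BCR-ABL1 among GFP-negative cells.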
